A study of Mus musculus with 4 samples.

Results

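The 10 genes described here encode the inhibitors, activators and substrate of the G1 kinases: the INK4 inhibitors Cdkn2a, Cdkn2b, Cdkn2c and Cdkn2d, the CIP/KIP inhibitors Cdkn1b and Cdkn1c, the D cyclins Ccnd1, Ccnd2 and Ccnd3, and Rb1. They were chosen by symbol, for their part in cell-cycle exit and senescence, from the 18298 genes that had reads in any of the samples. All 10 were listed in all 4 samples, with 224 to 23826 reads per gene and sample, and all 10 passed the filter on low counts.

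A cell leaves G1 when a D cyclin, bound to CDK4 or CDK6, starts to phosphorylate the retinoblastoma protein and so frees the E2F factors that switch on the genes of DNA replication. The INK4 proteins bind CDK4 and CDK6 in place of the cyclin, and the CIP/KIP proteins block the cyclin E and cyclin A kinases. In the growth plate the D cyclins accompany chondrocyte proliferation, p57 (Cdkn1c) accompanies the exit into hypertrophy, and p16Ink4a, p15Ink4b and p21 are widely used as marks of senescent cells.

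Poly(A) RNA of primary rib chondrocytes, the cells that make cartilage, was sequenced from C57BL/6 embryos at E18.5, after 1 passage in culture. The wild-type group (WT, n = 2) was Senp6f/f without Cre, and the mutant group (Mut, n = 2) was Dermo1-Cre;Senp6f/f, so both groups carried the floxed Senp6 alleles. Senp6 encodes a protease that removes SUMO2/3 chains, and Dermo1-Cre is expressed from the Twist2 locus in mesenchymal progenitors, so the deletion began before the chondrocytes formed and was not limited to them. The sources used here do not say whether the replicates came from separate embryos. The Mut samples differed in Xist and in Y-linked reads, as given below, so they were not repeats of the same embryo or pool. For the WT pair the embryo of origin is not known. The paper describes n in its culture work as biological replicates and gives n = 2 for this sequencing. The p-values measure the spread between these samples.

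The 4 samples held about 21020000 to 30990000 reads counted on genes. Senp6 itself had an RPKM (the reads of a gene per length and per reads counted in the sample) of 10.8 and 18.02 in WT and of 12.0 and 8.07 in Mut, so the groups overlapped, and the count of the whole gene does not isolate the floxed exons. The cartilage collagen Col2a1 had 609 and 659 RPKM in WT and 334 and 445 in Mut, and the fibroblast and bone collagen Col1a1 had 3311 to 7253. WT replicate 1 stood apart from the other 3 samples, with the lowest RPKM of 43.1% and the highest of 27.8% of the tested genes, and the biological coefficient of variation was 0.208 within the WT pair and 0.121 within the Mut pair. Mut replicate 2 was the sample with Xist (22.4 RPKM) and with almost no reads of Y-linked genes (Ddx3y at 0.023 against 8.39 to 11.1). With 2 samples a group, an exact permutation test of 1 gene cannot give a p under 0.333, so each gene was tested with edgeR's quasi-likelihood test, which borrows the spread from all 14123 tested genes.

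Cdkn2a is a special case among the members, because 1 gene symbol stands for 2 products that start from separate promoters and are read in different frames. The deposited files hold 1 row for the symbol, with a length of 929 bases that equals neither transcript in GENCODE, and how reads of the 2 transcripts entered that count was not tested. In GENCODE vM21 on GRCm38, the transcript of p16Ink4a (Cdkn2a-201, 852 bases) and that of p19Arf (Cdkn2a-202, 895 bases) begin with different first exons, at chr4:89281986-89282192 and chr4:89294334-89294653 on the minus strand, and both join the same second exon at chr4:89276645-89276985. The longest run shared by the transcripts was 578 bases, which is 67.8% of the first and 64.6% of the second. The last 30 bases of each first exon are shown in lower case and the first 30 bases of the shared second exon in capitals, since a read within the capitals cannot be given to either product.
p16Ink4a: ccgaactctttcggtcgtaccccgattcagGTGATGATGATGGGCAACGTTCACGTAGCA
p19Arf: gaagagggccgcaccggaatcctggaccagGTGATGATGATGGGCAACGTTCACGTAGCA

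Between Cdkn2a and its neighbour Cdkn2b, in contrast, the longest run shared by the transcripts was 23 bases (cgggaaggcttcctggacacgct). Between the D cyclins it was 14 to 20 bases, with the 20 bases ttcaagtgcgtgcagaagga common to Ccnd1 and Ccnd2.

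The 3 promoters of the INK4 locus are printed because Cdkn2a and Cdkn2b varied in the same direction among these samples, as described in the next paragraphs. Each runs from 250 bases before the start of the RefSeq transcript to 50 bases into it (GRCm38.p6, minus strand, printed 5′ to 3′). Capitals mark 3 motifs that were searched on both strands: the E2F words TTTCCCGC, TTTCGCGC, TTTGGCGC and TTTGCCGC, the GC box GGGCGG, and the cyclic AMP response element TGACGTCA.
Cdkn2a, p19Arf start, chr4:89294570-89294869: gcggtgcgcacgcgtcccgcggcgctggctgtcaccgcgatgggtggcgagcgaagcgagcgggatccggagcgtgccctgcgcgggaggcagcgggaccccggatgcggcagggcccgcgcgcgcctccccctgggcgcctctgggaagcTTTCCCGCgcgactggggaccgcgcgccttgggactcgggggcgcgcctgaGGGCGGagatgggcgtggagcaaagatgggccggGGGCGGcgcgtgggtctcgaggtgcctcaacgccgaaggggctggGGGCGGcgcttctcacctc
Cdkn2a, p16Ink4a start, chr4:89282143-89282442: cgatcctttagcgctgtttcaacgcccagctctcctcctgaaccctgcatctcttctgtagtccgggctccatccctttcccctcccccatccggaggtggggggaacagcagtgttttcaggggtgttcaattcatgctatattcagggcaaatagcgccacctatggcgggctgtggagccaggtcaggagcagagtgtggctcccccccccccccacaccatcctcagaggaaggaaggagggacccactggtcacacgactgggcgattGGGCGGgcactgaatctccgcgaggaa
Cdkn2b, p15Ink4b start, chr4:89310983-89311282: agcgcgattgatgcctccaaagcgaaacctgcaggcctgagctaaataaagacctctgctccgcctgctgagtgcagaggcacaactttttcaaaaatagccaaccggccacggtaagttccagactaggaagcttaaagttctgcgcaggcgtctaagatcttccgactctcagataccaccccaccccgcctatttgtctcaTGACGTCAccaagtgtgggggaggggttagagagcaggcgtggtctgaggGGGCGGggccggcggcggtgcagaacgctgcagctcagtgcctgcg

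The p19Arf promoter held 1 E2F word, a motif found in 2.26% of 32851 promoters, and 3 GC boxes, a motif found in 35.7%. The p16Ink4a promoter held 1 GC box, and the Cdkn2b promoter held 1 GC box and 1 cyclic AMP response element, the latter found in 1.79% of promoters. Their GC content was 77.0%, 60.3% and 57.7%, against a median of 52.7%, and they held 45, 12 and 18 CpG against a median of 7. A match describes the letters and not the binding of a factor. RefSeq promoters were at hand for 6 of the 10 members, and those of Cdkn1c, Ccnd1, Ccnd2 and Rb1 were not used here.

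No member passed an edgeR adjusted p of 0.05, as was so for all tested genes (0.0% called in either direction). In that test 3 members, Ccnd1, Ccnd2 and Rb1, had an unadjusted p under 0.05, all higher in Mut, and 9.29% of all tested genes did so in that direction, with 6.28% in the other. By RPKM, both Mut samples lay above both WT samples for 4 members (Ccnd1, Ccnd2, Ccnd3 and Rb1) and below both for 2 (Cdkn2b and Cdkn1b), where 28.3% and 19.2% of all tested genes did so. The other 4 members, Cdkn2a, Cdkn2c, Cdkn2d and Cdkn1c, overlapped between the groups. DESeq2 called 2 members, Ccnd1 and Ccnd2, as higher, where it called 3.07% of the tested genes as higher and 1.86% as lower. Without a filter on low counts edgeR called Ccnd1 alone as higher, where 1.23% and 0.333% of all genes were called, and so it did without WT replicate 1, where 3.72% and 1.06% were called. The median log2 fold change of the members was 0.07, and that of all tested genes was 0.01.

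**Figure D1:**
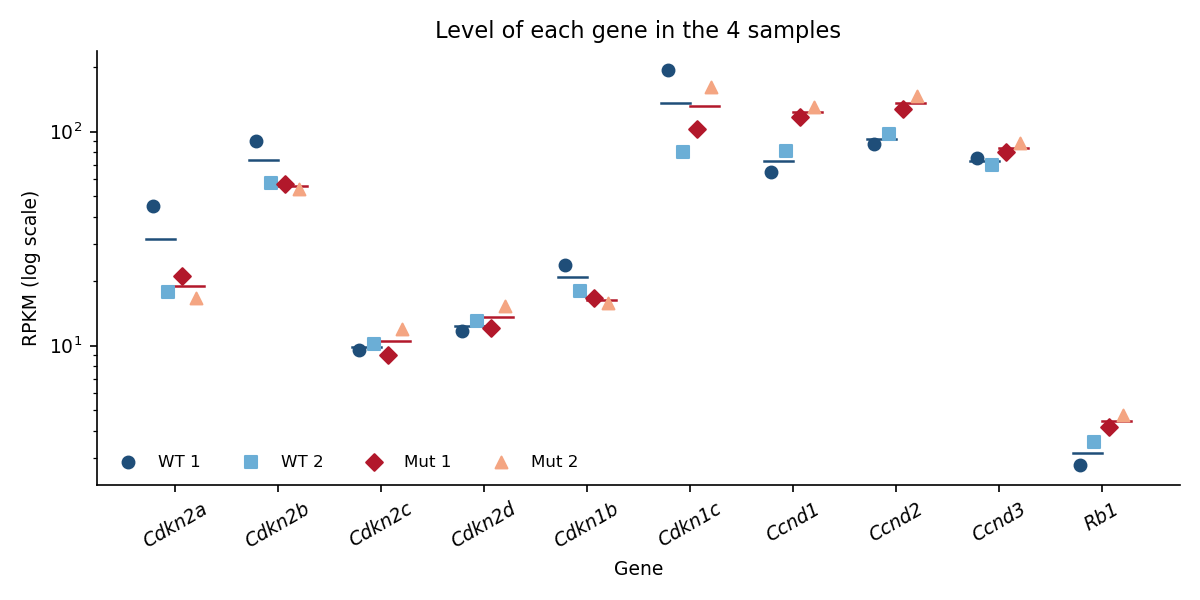
RPKM (log axis) of the 10 genes in WT replicates 1 and 2 (blue) and Mut replicates 1 and 2 (red), with a line at each group's mean (n = 2). The D cyclins and Rb1 have both Mut points above both WT points, while Cdkn2a, Cdkn2b, Cdkn1b and Cdkn1c have their highest point in WT replicate 1.

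Ordered by their mean over the 4 samples, Cdkn1c (134 RPKM) and Ccnd2 (115) came first, then Ccnd1 (98.2), Ccnd3 (78.3), Cdkn2b (64.8), Cdkn2a (25.2), Cdkn1b (18.6), Cdkn2d (13.0), Cdkn2c (10.2) and Rb1 (3.80). The positions from Cdkn2d to Rb1 were the same in all 4 samples. Those at the top were not, as Cdkn1c was first in WT replicate 1 and Mut replicate 2 and Ccnd2 was first in the other two. Cdkn2a and Cdkn1b changed places as well, since Cdkn1b was ahead by a small margin in WT replicate 2 (17.9 against 17.8).

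Cdkn2a (Entrez Gene 12578) was counted 877 and 433 times in WT and 610 and 440 times in Mut. Its RPKM was 44.9 and 17.8 in WT and 21.2 and 16.8 in Mut. One WT sample was thus high and the other lay among the mutant samples. The WT mean was 31.4 ± 19.2 (SD, n = 2) and the Mut mean 18.98 ± 3.12 (SD, n = 2). The log2 fold change was -0.77 ± 0.42 (SE; 95% interval -1.77 to 0.23; edgeR adjusted p = 0.445). The gap between the WT replicates was 1.39 on the log2 scale, wider than that of 97.0% of the tested genes, and exceeded the difference between the groups. Without WT replicate 1 the log2 fold change was 0.07, and without WT replicate 2 it was -1.34 with an adjusted p of 0.00056 in edgeR, over a range of 0.00056 to 0.9999 among the alternatives. Reads covered 79.3% to 93.8% of the 929 bases given for the gene, and the share of p16Ink4a in these counts was not tested.

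Cdkn2b (Entrez Gene 12579), which encodes p15Ink4b, an inhibitor induced by TGF-beta, had 90.8 and 57.4 RPKM in WT and 57.0 and 54.1 in Mut, from 2090 to 2657 reads. The groups were separate by a margin of only 0.40 RPKM, because WT replicate 2 lay next to the mutant samples. The log2 fold change was -0.46 ± 0.23 (SE; 95% interval -1.02 to 0.10; edgeR adjusted p = 0.410), and without WT replicate 1 it was -0.07. It differed from Cdkn2a in its level but shared its order of samples at the extremes, with the highest value in WT replicate 1 and the lowest in Mut replicate 2.

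Cdkn2c and Cdkn2d (Entrez Gene 12580 and 12581), which encode p18Ink4c and p19Ink4d, the INK4 proteins of normal proliferation and differentiation, were the lowest of the INK4 genes. Their mean RPKM still lay above that of 57.4% and 63.9% of the tested genes. Cdkn2c had 9.53 and 10.2 RPKM in WT and 9.02 and 12.0 in Mut. Cdkn2d had 11.6 and 13.1 RPKM in WT and 12.1 and 15.3 in Mut. In both genes the 2 groups were interleaved. Their log2 fold changes were 0.04 ± 0.20 and 0.10 ± 0.18 (SE). The 95% intervals were -0.44 to 0.53 and -0.32 to 0.53 and rest on 2 samples a group. The WT pair differed by 0.04 and 0.11 on the log2 scale in these genes, so WT replicate 1 did not stand apart here. The Mut pair differed by 0.37 and 0.30, wider gaps than those of 82.2% and 76.9% of the tested genes.

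Summed over the INK4 genes, the RPKM was 157 in WT replicate 1 and 98.5, 99.3 and 98.1 in WT replicate 2 and Mut replicates 1 and 2. The last 3 values, from both genotypes, were nearly equal. Cdkn2b gave most of the sum in every sample, from 55.1% to 58.3%, while the part of Cdkn2a was 28.6% in WT replicate 1 and 17.1% to 21.3% in the others.

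The CIP/KIP inhibitor Cdkn1b (Entrez Gene 12576), which encodes p27Kip1, had 23.8 and 17.9 RPKM in WT and 16.7 and 15.9 in Mut, from 1080 to 1243 reads. Both mutant samples were lower than both WT samples, by 1.24 RPKM at the nearest pair. The log2 fold change was -0.40 ± 0.18 (SE; 95% interval -0.84 to 0.04; edgeR adjusted p = 0.363) and was -0.16 without WT replicate 1.

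Cdkn1c (Entrez Gene 12577), the maternally expressed imprinted gene of p57Kip2, was counted 7922 and 4078 times in WT and 6210 and 8870 times in Mut. Its RPKM was 193 and 79.9 in WT and 103 and 161 in Mut. The lowest and the highest value were both in WT, and the mutant samples lay between them. The group means were 137 ± 80.0 and 132 ± 41.2 (SD, n = 2), and the log2 fold change was -0.11 ± 0.42 (SE; 95% interval -1.10 to 0.89; edgeR adjusted p = 0.928). The replicates differed by 1.33 on the log2 scale in WT and by 0.61 in Mut, wider gaps than those of 96.6% and 92.2% of the tested genes. The direction turned with the sample left out, from -0.66 without WT replicate 2 to 0.70 without WT replicate 1.

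The third gene of the CIP/KIP family, Cdkn1a, which encodes the p53 target p21 and is not a member, behaved in another way. It had 57.7 and 84.6 RPKM in WT and 122 and 176 in Mut, with a log2 fold change of 1.02 ± 0.23 (SE) and an adjusted p of 0.115 in edgeR. It passed in DESeq2 and in the edgeR fit with a replicate block. Its lowest value was in WT replicate 1, where Cdkn1b and Cdkn1c had their highest.

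**Figure D2:**
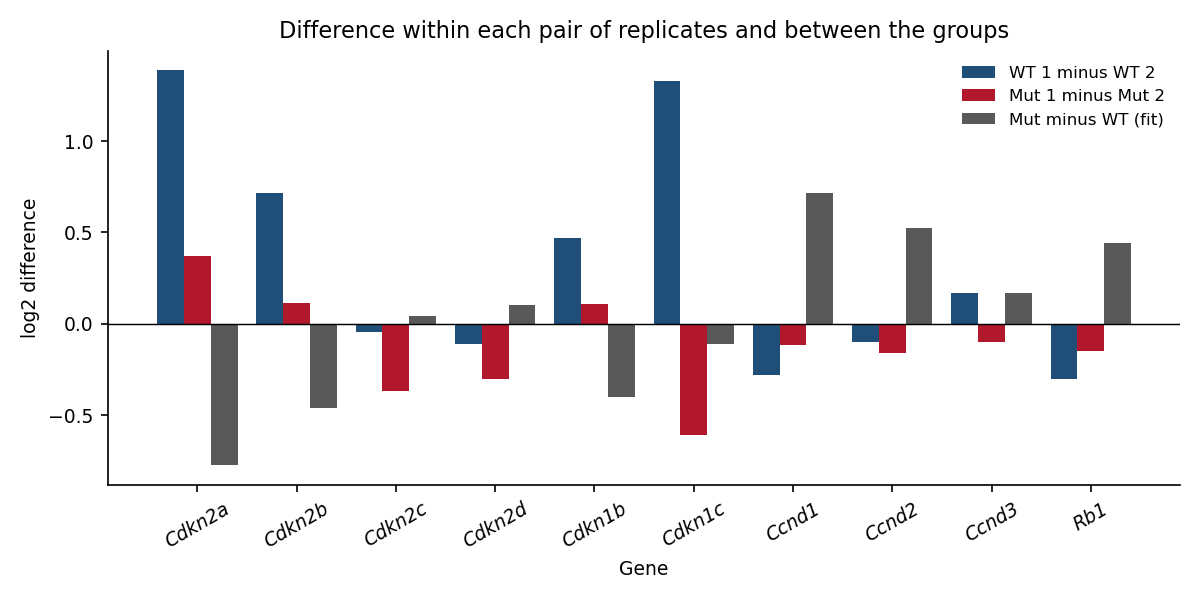
Differences on the log2 scale for each gene: WT replicate 1 minus WT replicate 2 (blue) and Mut replicate 1 minus Mut replicate 2 (red) in TMM-scaled counts, and Mut minus WT from the edgeR fit (grey). The WT gap exceeds the group difference in size for Cdkn2a, Cdkn2b, Cdkn1b and Cdkn1c, and by a small margin for Cdkn2d and Ccnd3, and the group difference exceeds both gaps for Ccnd1, Ccnd2 and Rb1.

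Among the members the D cyclins Ccnd1 and Ccnd2 had the smallest p-values. Ccnd1 (Entrez Gene 12443), which encodes cyclin D1, the D cyclin most tied to mitogen signals, was counted 5140 and 8088 times in WT and 13728 and 13941 times in Mut. Its RPKM was 64.4 and 81.5 in WT and 117 and 130 in Mut. Both mutant samples were well above both WT samples, and the WT gap of 0.28 on the log2 scale was near the middle of all tested genes (52.4% had a smaller one). The means were 73.0 ± 12.1 and 123 ± 9.43 (SD, n = 2), which is a ratio of 1.69. The log2 fold change was 0.72 ± 0.15 (SE), with a 95% interval from 0.37 to 1.07, and in edgeR the unadjusted p was 0.0021 and the adjusted p 0.101. The call depended on the test: in DESeq2 the log2 fold change was 0.70 and the adjusted p was 0.0017, within a range of 0.0014 to 0.316 over the alternatives.

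Ccnd2 (Entrez Gene 12444), which encodes cyclin D2, was the most read member, with 10594 and 14721 reads in WT and 22796 and 23826 in Mut. Its RPKM was 87.3 and 97.6 in WT and 127 and 146 in Mut, again with no overlap. The means were 92.5 ± 7.24 and 137 ± 13.2 (SD, n = 2), a ratio of 1.48. The log2 fold change was 0.52 ± 0.13 (SE; 95% interval 0.21 to 0.84; edgeR adjusted p = 0.140), and DESeq2 gave 0.51 with an adjusted p of 0.023, within a range of 0.018 to 0.773 over the alternatives.

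Ccnd3 (Entrez Gene 12445), which encodes cyclin D3, had 75.4 and 69.8 RPKM in WT and 80.0 and 88.1 in Mut. The groups did not overlap but lay close together, and the log2 fold change was 0.17 ± 0.13 (SE; 95% interval -0.14 to 0.48; edgeR adjusted p = 0.602). It was the one D cyclin with the higher WT value in replicate 1.

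The summed RPKM of the D cyclins was 227.1 and 248.9 in WT and 324 and 364 in Mut. Ccnd1 made up 28.4% and 32.8% of it in WT and 36.0% and 35.7% in Mut, and Ccnd3 made up 33.2% and 28.05% in WT and 24.7% and 24.2% in Mut. The share of Ccnd2 stayed between 38.5% and 40.1%. In the mutant samples Ccnd1 thus stood second among the D cyclins with Ccnd3 last, whereas in WT replicate 1 Ccnd3 was ahead of Ccnd1.

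**Figure D3:**
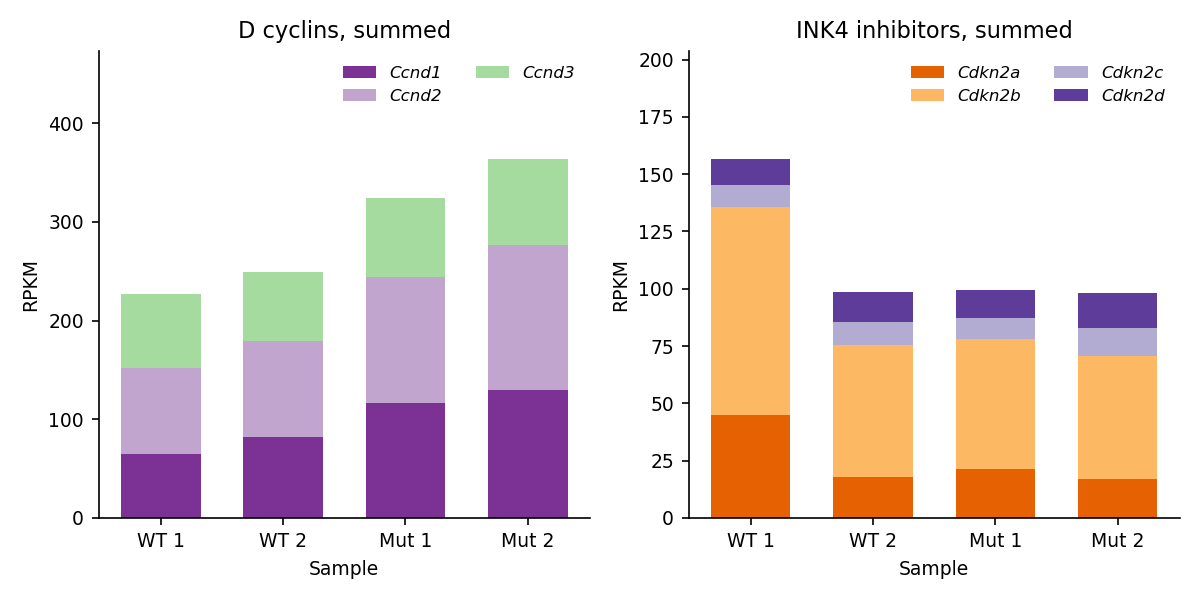
Summed RPKM of the D cyclins (left) and of the INK4 inhibitors (right) in each sample, with each gene's part stacked from 0. The D cyclin sum is 227.1 and 248.9 in WT and 324 and 364 in Mut, while the INK4 sum is 157 in WT replicate 1 and 98.1 to 99.3 in the other 3 samples.

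Cdk4, the main kinase partner of the D cyclins by level, was not higher in Mut. It had 279 and 312 RPKM in WT and 271 and 285 in Mut (log2 fold change -0.13 ± 0.12, SE), and Cdk6 was far lower in level, at 4.95 and 6.51 in WT and 8.66 and 7.44 in Mut (0.45 ± 0.19; edgeR adjusted p = 0.331). The D cyclin RPKM per RPKM of Cdk4 and Cdk6 together was 0.80 and 0.78 in WT and 1.16 and 1.25 in Mut, a gap between groups much wider than that within them. Per RPKM of the INK4 genes it was 1.45 and 2.53 in WT and 3.27 and 3.71 in Mut, and with Cdkn1b and Cdkn1c added to the INK4 genes it was 0.61 and 1.27 in WT and 1.48 and 1.33 in Mut, where WT replicate 2 and Mut replicate 2 came close together. These ratios compare mRNA levels per length and not proteins.

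Rb1 (Entrez Gene 19645), which encodes the retinoblastoma protein, was the lowest of the members and lay above only 35.2% of the tested genes. Its RPKM was 2.77 and 3.56 in WT and 4.15 and 4.72 in Mut, from 270 to 619 reads. Both mutant samples were higher than both WT samples, with a log2 fold change of 0.44 ± 0.18 (SE; 95% interval 0.02 to 0.87; edgeR adjusted p = 0.293). Of its relatives, Rbl1 (p107) had 5.33 and 8.04 RPKM in WT and 8.75 and 7.67 in Mut, and Rbl2 (p130) had 7.75 to 8.66 across the 4 samples.

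**Figure D4:**
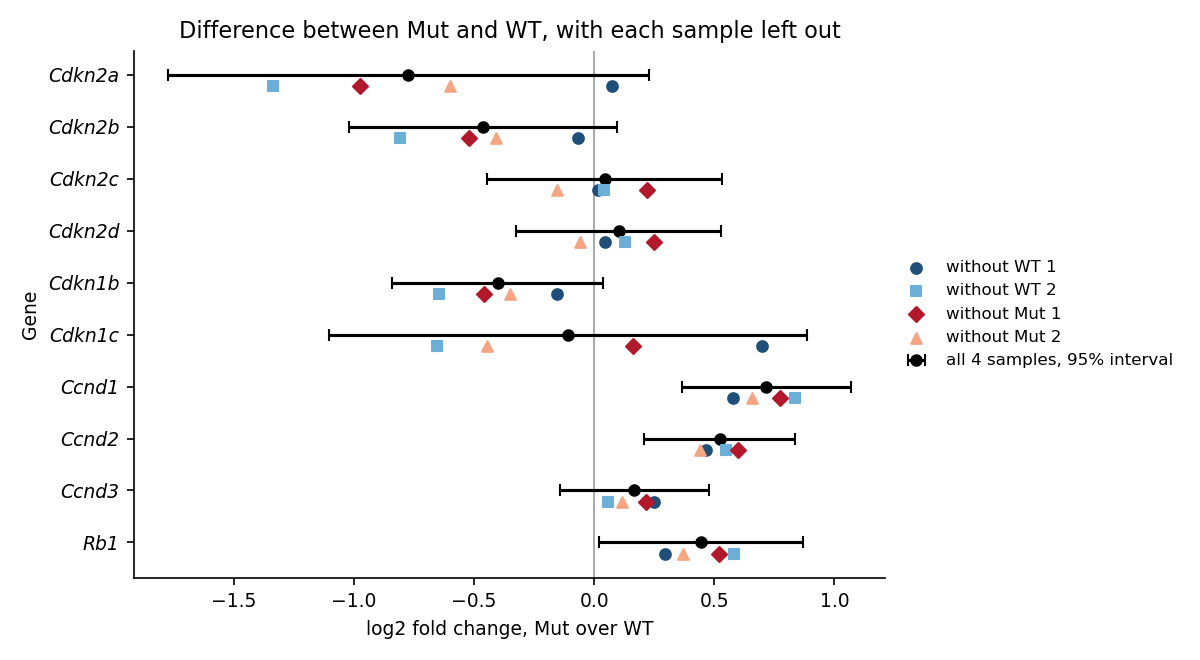
log2 fold change of Mut over WT for each gene from edgeR, with its 95% interval (black, all 4 samples) and the value with each sample left out in turn (coloured points). The D cyclins and Rb1 stay above 0 whichever sample is left out, while Cdkn2a and Cdkn1c cross 0 without WT replicate 1, Cdkn1c also without Mut replicate 1, and Cdkn2c and Cdkn2d without Mut replicate 2.

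The members thus differed in which sample set their values. WT replicate 1 held the highest RPKM of 4 members, all inhibitors (Cdkn2a, Cdkn2b, Cdkn1b and Cdkn1c), and the lowest of 4 others (Cdkn2d, Ccnd1, Ccnd2 and Rb1). This compares with 27.8% of all tested genes for the highest and 43.1% for the lowest value. Without it, 5 members were higher in both mutant samples than in WT replicate 2, with Cdkn1c added to the D cyclins and Rb1, and Cdkn2b and Cdkn1b were still lower, where 39.4% and 36.6% of the tested genes were so. Without WT replicate 2 instead, Cdkn2d joined the D cyclins and Rb1 to make 5 members that were higher in both mutant samples, and Cdkn2a, Cdkn2b, Cdkn1b and Cdkn1c made 4 that were lower, where 51.5% and 33.1% of the tested genes were so. In that case the edgeR fit called 6 members, Cdkn2a, Cdkn2b and Cdkn1b as lower and Ccnd1, Ccnd2 and Rb1 as higher, but it then called 10.6% of all tested genes as lower and 9.42% as higher. Such a fit takes the lone WT sample to vary like the mutant pair.

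The genes around the members in the pathway were taken from 10 lists with 124 tested genes, none of which passed an adjusted p of 0.05 in edgeR in either direction. At an unadjusted p under 0.05 there were 10 higher and 4 lower genes (9.29% and 6.28% of all tested genes), and in DESeq2 6 and 1 passed the adjusted threshold (3.07% and 1.86% of all). Both mutant samples lay above WT in 28 of the 124 and below in 10, where 28.3% and 19.2% of all tested genes did so, and the median log2 fold change was 0.05.

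Among the pathway lists, the E2F target genes, which the retinoblastoma protein holds back, showed the split between the WT samples most clearly. Of 31 tested targets, 30 had their lowest RPKM in WT replicate 1, where 43.1% of all tested genes did, and the exception was Cdt1, lowest in Mut replicate 2. Their summed RPKM was 542 and 842 in WT and 803 and 770 in Mut, so WT replicate 2 was the highest sample. The proliferation marker Mki67 had 25.3 and 38.7 RPKM in WT and 39.2 and 31.7 in Mut. The median log2 fold change of the targets was 0.11, and both mutant samples were above WT for 5 of them and below for 0, where 28.3% and 19.2% of all tested genes were so. Cyclin E1 (Ccne1) had the largest difference, with 10.8 and 16.1 RPKM in WT and 23.4 in each mutant sample (log2 fold change 0.76 ± 0.19, SE; edgeR adjusted p = 0.140), followed by Ccne2 (0.71 ± 0.33), and Cdt1 (-0.13 ± 0.16) and Mcm5 (-0.03 ± 0.20) were at the other end.

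**Figure D5:**
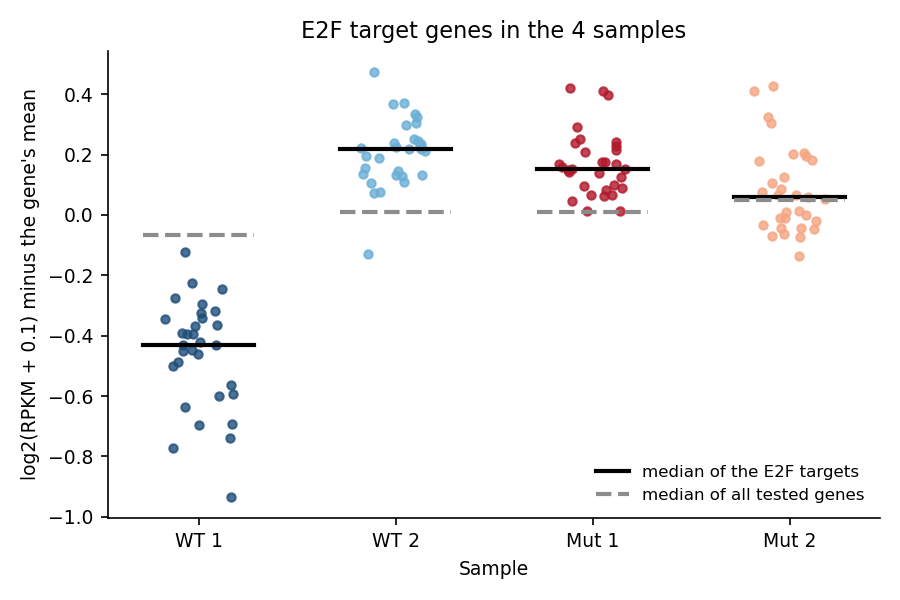
log2(RPKM + 0.1) of 31 E2F target genes in each sample, minus each gene's mean over the 4 samples (points), with the median of the targets (black line) and of all tested genes (dashed line). The targets have a median of -0.43 in WT replicate 1 and of 0.22, 0.15 and 0.06 in WT replicate 2 and Mut replicates 1 and 2.

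The other parts of the core machinery held no gene that passed the edgeR test. Among the CDK partners of the D and E cyclins the median log2 fold change was 0.08 over 9 genes, with Cdk7 of the CDK-activating kinase at -0.17 ± 0.13 and Cdk4 at the low end. Among the pocket proteins and E2F/DP factors it was 0.12 over 12 genes, led by the repressors E2f6 (0.62 ± 0.16) and E2f7 (0.54 ± 0.25), with Rbl2 (-0.07 ± 0.13) and E2f1 (-0.02 ± 0.19) lowest. In the MuvB core, which joins p130 or p107 in the DREAM repressor of cell-cycle genes, 5 genes had a median of 0.01, and Lin52, Rbbp4 and Lin37 had log2 fold changes of 0.16 ± 0.25, 0.15 ± 0.15 and -0.06 ± 0.17. For the enzymes that degrade or spare p27 and the D cyclins the median was 0.04 over 12 genes. Usp2, a deubiquitinase that stabilizes cyclin D1, had the largest value there, 1.08 ± 0.30, with 1.64 and 2.19 RPKM in WT and 3.03 and 5.34 in Mut (edgeR adjusted p = 0.167). In the same list Gsk3b, the kinase that marks cyclin D1 for export and decay, had 0.17 ± 0.12, and Cks1b and Fbxo31 had -0.19 ± 0.16 and -0.19 ± 0.15.

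The regulators of the Cdkn2a-Cdkn2b locus, among them the Polycomb proteins that silence it, had, over 24 genes, a median of 0.01 on the log2 scale. Hmga2, a chromatin protein known to lower the output of the locus, had 27.9 and 66.3 RPKM in WT and 86.7 and 80.0 in Mut (0.79 ± 0.35). Twist1, which also restrains the locus, had 63.6 and 40.7 RPKM in WT and 33.9 and 32.7 in Mut (-0.70 ± 0.23), so that these 2 repressors differed in opposite directions. The Polycomb genes Cbx7 and Ring1 had 0.53 ± 0.34 and -0.40 ± 0.18, and Bmi1 had 9.41 to 12.3 RPKM across the samples. WT replicate 1 was the lowest sample for Hmga2 and the highest for Cdkn2a, Cdkn2b and Twist1.

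Factors upstream of Cdkn1b, Cdkn2b and the D cyclins had, over 14 genes, a median of -0.03 on the log2 scale. Foxo1, which activates Cdkn1b, had 0.47 ± 0.15 and Smad2 had 0.16 ± 0.13, whereas Tcf7l2, the partner of beta-catenin at Wnt targets such as Ccnd1, had -0.54 ± 0.18 and Foxo4 had -0.46 ± 0.17. Tcf7l2 was at 20.8 and 17.5 RPKM in WT and 15.1 and 12.1 in Mut, opposite in direction to Ccnd1. The 8 tested genes listed as imprinted neighbours of Cdkn1c had a median log2 fold change of -0.0007. Of these, Slc22a18 had the same order of samples as Cdkn1c, with 2.90 and 1.47 RPKM in WT and 1.84 and 2.72 in Mut, and a gap of 1.01 on the log2 scale between the WT replicates. Phlda2, at 7 to 23 reads, had another order, with 0.45 and 0.67 RPKM in WT and 1.01 and 0.53 in Mut. H19 had 2820 and 2301 RPKM in WT and 2018 and 2037 in Mut, Kcnq1ot1, the antisense RNA that silences the paternal copy, had 1.15 to 1.38 in the 4 samples, and the log2 fold changes were -0.38 ± 0.16 for H19, -0.32 ± 0.18 for Igf2, 0.30 ± 0.14 for Cd81 and 0.04 ± 0.13 for Kcnq1ot1. Strand was not kept by the library protocol, so Kcnq1ot1 and Kcnq1 reads cannot be told apart where they overlap.

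Of the senescence markers other than the members, 6 of 14 were above WT in both mutant samples and 1 was below (28.3% and 19.2% of all tested genes), with a median log2 fold change of 0.16. Gdf15, a stress-induced cytokine, had 1.67 and 2.36 RPKM in WT and 8.01 and 11.1 in Mut (2.19 ± 0.28; edgeR adjusted p = 0.077), and Il6, a secreted inflammatory signal, had 0.31 and 0.60 in WT and 1.96 and 3.94 in Mut (2.62 ± 0.51; edgeR adjusted p = 0.096). Igfbp5 was the gene below WT, at 92.4 and 45.7 RPKM in WT and 36.6 and 37.5 in Mut (-0.95 ± 0.32), and the lysosomal gene Glb1 had -0.24 ± 0.20. Lmnb1, whose loss is a usual sign of senescence, overlapped between the groups by RPKM, at 34.1 and 38.0 in WT and 34.6 and 28.2 in Mut. On TMM-scaled counts both mutant samples lay below both WT samples, as for 22.8% of all tested genes. Its log2 fold change was -0.24 ± 0.15 (SE; edgeR adjusted p = 0.529). In contrast to Gdf15 and Il6, the means of Cdkn2a and Cdkn2b were lower in Mut than in WT. Without WT replicate 1, however, the log2 fold changes of Cdkn2a and Cdkn2b were 0.07 and -0.07. Of the other CDK-inhibitory genes, whose median over 5 was 0.28, Cdkn3, a phosphatase of CDKs, had 13.5 and 15.5 RPKM in WT and 19.6 and 26.1 in Mut (0.61 ± 0.20), and Cdk2ap1 had -0.02 ± 0.15.

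Markers of cell types differed between the groups and in WT replicate 1. Of 14 tested chondrocyte genes, 12 were below WT in both mutant samples, their median log2 fold change was -1.29, with a summed RPKM of 1034 and 1020 in WT and 518 and 651 in Mut. Of 5 tested osteoblast genes 5 were below (summed RPKM 83.3 to 187 in WT and 31.9 to 53.5 in Mut). All 4 smooth muscle genes were above (summed RPKM 1285 to 1509 in WT and 1860 to 1973 in Mut), and 7 of 10 striated muscle genes were above (32.9 to 99.4 in WT and 163 to 182 in Mut), with WT replicate 2 the lowest. The 4 tested hypertrophic genes had a summed list RPKM of 54.6 and 28.5 in WT and 27.04 and 28.13 in Mut. Like Cdkn1c, 3 of the 4 were highest in WT replicate 1, and most of the sum was Pth1r (46.9 and 23.5 RPKM in WT, 21.7 and 20.5 in Mut). But Col10a1, which defines that state, was lowest there, with only 1.47 and 2.21 RPKM in WT and 1.76 and 4.24 in Mut. The fibroblast and perichondrium genes summed to 8689 to 12412 RPKM in WT and 6444 to 8834 in Mut, those of the endothelium to 0.61 to 1.10 and 0.83 to 0.94, and those of macrophages and blood to 14.7 to 16.7 and 6.69 to 10.4. Col1a1 made up most of the fibroblast sum. Of those 7 genes 4 were below WT in both mutant samples and 1 was above (19.2% and 28.3% of all tested genes). The latter was Thy1, at 219 and 341 RPKM in WT and 609 and 832 in Mut. The part of these differences in the values of the members was not tested. In bulk RNA, fewer cells of a type and less RNA per cell cannot be told apart.

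The genes most like 3 of the members were found by the root mean square difference of the log2 levels, centred on each gene's mean, among 11723 genes over the 4 samples. For Ccnd1 the nearest was Pls3, an actin-bundling protein, at 0.023, with 52.0 and 68.1 RPKM in WT and 95.03 and 104 in Mut, followed by C77080 and Spred3, and 102 genes lay within 0.1. For Cdkn2a the nearest was Adcy5 at 0.081, followed by Vstm4 and Il1f10, and only Adcy5 lay within 0.1. For Cdkn1c the nearest was Ccrl1 at 0.081, followed by Cadm3 and Acad10, and 3 genes lay within 0.1. More genes lay close to Ccnd1 than to Cdkn2a or Cdkn1c, which is a description over 4 samples. The measure was not scaled to each gene's own spread, so these counts also depend on how far each member varied.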

How the data were processed

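Poly(A) RNA of 2 WT and 2 Mut chondrocyte cultures was sequenced by a service. Per gene and sample, the authors deposited the raw read count, the RPKM, which divides it by the gene length and by the sample's reads counted on genes, and the percent of the gene's bases with a read. That percent is quoted for Cdkn2a alone. The submitters' processing notes name mm9 and SAMtools. The aligner, the counting tool and the annotation are not given in the sources used here. Strand was not kept. A gene missing from a sample's list was given a count of 0. Sequences came from GENCODE vM21 and RefSeq on GRCm38, and no coordinate was converted. The 6 members with a RefSeq promoter were matched by symbol.

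In R 4.3.3, counts entered the quasi-likelihood (QL) test of edgeR 4.0.16 after TMM (factors 0.966 to 1.03). A gene was kept if 2 or more samples had 10 or more counts (14123 genes), and p-values were adjusted over all of these by Benjamini-Hochberg. RPKM were used for levels. In the shallowest sample 10 counts over 2 kb equal 0.238 RPKM. The replicate pairs differed by more than sampling noise (chi-square per degree of freedom 48.6 in WT and 23.7 in Mut). On simulated counts the test was checked before use. Alternatives were DESeq2 1.42.0, other scalings and filters, limma 3.58.1 on log2 RPKM, a replicate block, and each sample left out. Named genes are the members, Cdkn1a and Senp6, the 2 largest differences in each direction of each list with a mean RPKM of at least 1, the 3 genes most like Cdkn2a, Cdkn1c and Ccnd1, and markers. Cdk6, Rbl1, Bmi1, Mki67, Lmnb1, Slc22a18, Phlda2 and Hmga1 were named after their values were seen. The members and lists were chosen with earlier results of these data known.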

Additional observations from a re-analysis of the deposited data

How the results depend on the processing

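The count of tested genes called higher and lower in Mut was 0 and 0 in edgeR (2199 had an unadjusted p under 0.05, and the smallest adjusted p was 0.051). It was 434 and 263 in DESeq2, 6 and 2 with library totals only, 225 and 61 without a filter, and 0 and 0 with relative log expression factors, with at least 10 counts in every sample and with limma at either pseudocount. With each sample left out it ranged from 96 to 1331 higher and from 47 to 1492 lower. Members called higher were 2 in DESeq2 (Ccnd1 and Ccnd2), 1 without a filter (Ccnd1), and 0 to 3 with a sample left out, and members called lower were 0 to 3, the 3 being reached without WT replicate 2. Genes of the pathway lists called higher were 6 in DESeq2, 2 without a filter and 1 to 21 with a sample left out. Those called lower were 1 in DESeq2 and 0 to 9 with a sample left out. With a sample left out, 4 to 6 members lay above and 2 to 4 below WT, in comparisons added after seeing the data. All tested genes did so in 41.9% and 25.8% without Mut replicate 1 and in 35.8% and 30.8% without Mut replicate 2.

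The replicate differences in WT and Mut had a correlation of -0.04 across genes. With 1 difference per group, this cannot show whether the replicate numbers pair the samples. With the replicate block the calls were 84 higher and 33 lower, with 0 members and 3 genes of the pathway lists higher, and the log2 fold change of Cdkn1c was 0.0052.

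The sign turned for Cdkn1c with limma (0.047 and 0.049 with a pseudocount of 1 and 0.1), and with a sample left out it ranged from -0.66 to 0.70 (above 0 without WT replicate 1 and, at 0.16, without Mut replicate 1). With a sample left out, the range was -1.34 to 0.074 for Cdkn2a (above 0 without WT replicate 1), -0.15 to 0.22 for Cdkn2c and -0.058 to 0.25 for Cdkn2d (both below 0 without Mut replicate 2). No value with a turned sign was past the threshold, and the cause was not tested. Ccnd1, Ccnd2, Ccnd3, Rb1, Cdkn2b and Cdkn1b kept their direction in all 12 alternatives. Levels on TMM-scaled counts per kilobase moved by less than the spread between replicates. With 2 samples a group the spread is known poorly.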

Other observations

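Hmga1, a chromatin protein listed among the senescence markers, had 28.9 and 13.0 RPKM in WT and 99.8 and 11.8 in Mut, so that Mut replicate 1 exceeded Mut replicate 2 by far more than the groups differed. It was named after its values were seen.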
